A study of Mus musculus with 6 samples.

Results

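The genes described here are 34 mouse genes for amino acid transport, serine and one-carbon metabolism, the synthesis of other amino acids, and the transcription factor ATF4 with genes of the stress response around it. They were chosen by name for these roles, with earlier results of these data known. Their counts beside the shares of all genes are therefore a description. All 34 were found by symbol among the 37991 gene identifiers of the count tables. By role they fall into 10 transporters, 8 serine and one-carbon enzymes, 6 enzymes that make other amino acids, and 10 genes for ATF4, related factors and stress targets. Their RNA was counted in group 2 innate lymphoid cells (ILC2s), lymphoid cells without antigen receptors that respond to tissue cytokines. The cells were sorted as lineage-negative, Thy1-positive and ST2-positive, ST2 being the IL-33 receptor chain encoded by Il1rl1. Every group came from mice homozygous for an Id1 transgene that the proximal promoter of lck drives. The line was made on FVB/N and backcrossed to C57BL/J, and the labels describe it as blocked in T cell development with ILC2s in excess. The first group was thymus ILC2s and the second was ILC2s from the mesenteric lymph nodes (MLN), both without treatment and with 2 libraries each. The third group, also 2 libraries, was MLN ILC2s after 1 week in culture with 3 cytokines, each at 10 ng/ml: IL-33, IL-25 and IL-7. Each sample was prepared from about 300000 cells, and no age of the mice is given in the sources used here. These groups allow 3 comparisons: cultured with fresh MLN cells, thymus with fresh MLN cells, and cultured MLN with thymus cells. Neither mice without the transgene nor culture without the cytokines were analysed here, so time in culture and the cytokines cannot be told apart.

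Amino acids enter a cell through membrane carriers, several of which exchange one amino acid for another. SLC7A5 and SLC7A11 each work as a pair with the heavy chain SLC3A2, which takes the light chain to the membrane. Serine is made from a glycolytic intermediate by PHGDH, PSAT1 and PSPH in turn, and SHMT enzymes pass one of its carbons to folate for the making of purines and thymidylate. ATF4 is a transcription factor whose protein is made when phosphorylation of eIF2 alpha slows general translation, as in amino acid shortage, and it is known to switch on genes for amino acid uptake and synthesis. Activated lymphocytes are known to take up and make more amino acids as they grow and divide.

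The 6 libraries held 35280692 to 40578264 counts assigned to genes. Levels are given as CPM, counts per 1000000 on totals scaled by TMM, with factors of 0.894 to 1.07. TMM is a normalization that assumes that most genes do not differ between libraries. A gene with 3 counts in a library stood at 0.0739 to 0.0905 CPM. Differences were tested with edgeR's quasi-likelihood test over 16231 genes, and a gene is said to rise, fall or be called where its Benjamini-Hochberg adjusted p was under 0.05. No label states that libraries of a group were separate mice or cultures, so p measures only the spread between these libraries, which may be technical. The ILC2 genes Gata3 and Il1rl1 stood at mean levels of 660 and 1450 CPM in thymus, 611 and 1851 CPM in fresh MLN, and 1049 and 2315 CPM in cultured cells. Thy1 stood at 731, 335 and 113 CPM in the same order. Of the 9 ILC2 markers looked at, 6 rose and 3 fell in culture against fresh MLN, and 2 rose and 4 fell in thymus. The falls in culture were in Thy1, in Il7r, from 2281 to 852 CPM, and in Rora, from 611 to 146 CPM. Those in thymus were in Il1rl1, Il7r, Id2 and Klrg1. Of all genes tested, 77.6% were called in culture and 47.3% in thymus. The assumption that TMM makes was not tested, and values on library totals are given at the end. Markers of other cells were summed by list. T cell genes came to 110.7 and 117.5 CPM in fresh MLN, 96.6 and 97.7 in thymus, and 55.0 and 63.4 in culture. B cell genes came to 198 and 153.7 CPM in fresh MLN, 74.0 and 81.6 in thymus, and 108 and 122.7 in culture. Macrophage genes came to 9.02 to 27.7 CPM per library, and 3 rose and 3 fell in culture against fresh MLN. Dendritic cell, granulocyte and red cell genes came to at most 43.1, 13.15 and 2.21 CPM per library. Epithelium and stroma genes came to 101 to 161 CPM. The 6 NK cell and ILC1 genes summed to 46.9 and 51.0 CPM in fresh MLN, 18.2 and 21.3 CPM in thymus, and 52.8 and 61.5 CPM in culture. Against fresh MLN, thymus had 5 of them lower, and culture had 5 lower and Prf1 higher, at 57.1 CPM. The 5 mast cell genes summed to 339 and 383 CPM in fresh MLN, 815 and 831 CPM in thymus, and 170.1 and 187.5 CPM in culture, nearly all from Kit and Cpa3, while Mcpt4 and Tpsb2 had no count in thymus or fresh MLN. Ly6g had no count in those groups and 737 in culture, and Ms4a1 and Klrb1c had none in culture. The part of such cells in the results was not tested. Id1, which the transgene encodes and whose own copy is counted with it, stood at 424 CPM in thymus, 451 in fresh MLN and 1.33 in culture. Its fall in culture (log2 -8.41 against fresh MLN) cannot be told apart from time in culture and the cytokines, and its part was not tested.

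In cultured against fresh MLN cells, 31 of the 32 genes that could be tested rose, and Slc38a1 was not called. By edgeR or DESeq2 0 fell, and 0 fell at an unadjusted p under 0.05. Of all genes tested, 77.6% were called in this comparison, 39.4% higher and 38.1% lower, so most genes differed between these groups. The median log2 fold change was 2.76 over these 32 genes and -0.01 over all genes tested. In 24 of the 32 the rise was at least 2-fold, which 23.3% of all genes tested showed. The pair of cultured libraries did not overlap the pair of fresh libraries for any of the 32, and 89.2% of all genes tested did not overlap either. Cbs and Fgf21 were too low to be tested. In sorted cells counted in bulk, a change in the share of cells that hold a transcript and a change in its amount per cell cannot be told apart. Slc6a9, Asns, Pycr1, Cth and Chac1 passed the filter on low counts only through the cultured libraries, so these 5 could be tested only because they were high in culture. Without them 26 of 27 rose, with a median of 1.85.

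In thymus against fresh MLN cells, 19 of the 32 genes rose, Slc7a3 and Ddit3 fell, and 11 were not called. Of all genes tested, 47.3% were called, 25.3% higher and 22% lower. The median log2 fold change was 0.57 against 0.00 for all genes tested, and 10 rises and 1 fall were at least 2-fold, as for 9.14% and 5.6% of all genes. In 24 of the 32 the libraries of the groups did not overlap, against 72.8% of all genes. In cultured MLN against thymus cells, 27 rose, Slc43a1 fell, and Slc38a1, Slc38a2, Shmt1 and Mthfd1 were not called. Here 72.7% of all genes were called, 34.8% higher and 37.8% lower, and the medians were 1.62 for the 32 genes and -0.06 for all genes. Of the 32, 20 were higher and 1 was lower by at least 2-fold, as for 18.4% and 17.3% of all genes, and 30 did not overlap, against 86% of all genes. Without the 5 genes tested only because of culture, 18 of 27 rose and 2 fell in thymus against fresh MLN (median 0.56), and 22 rose and 1 fell in cultured against thymus (median 1.20). Each group of libraries, fresh MLN included, serves in a pair of these comparisons, so their counts are not independent of each other.

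The order of the group means was cultured, then thymus, then fresh MLN for 25 of the 32 genes, an order that 26.3% of all genes tested showed. Both steps were called for 16 of the 32, against 10.6% of all genes tested. Among genes that showed the order, they were called for 16 of 25, against 1727 of 4271 over all genes. Slc6a9, Asns, Pycr1 and Cth are among the 25, and Slc6a9 is among the 16. These could be tested only because they were high in culture, so a cultured mean on top was set in advance for them, as for Chac1. For Slc3a2, Slc1a5, Slc7a11, Asns, Pycr1, Cth, Atf4 and Eif4ebp1 the step from thymus to fresh MLN was not called, and for Slc38a2 neither step was. Slc7a3, Ddit3 and Chac1 had thymus below fresh MLN, although for Chac1 both were at a few counts. Slc43a1, Shmt1 and Mthfd1 had thymus on top, and Slc38a1 ran from thymus down to cultured with no step called.

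**Figure D1:**
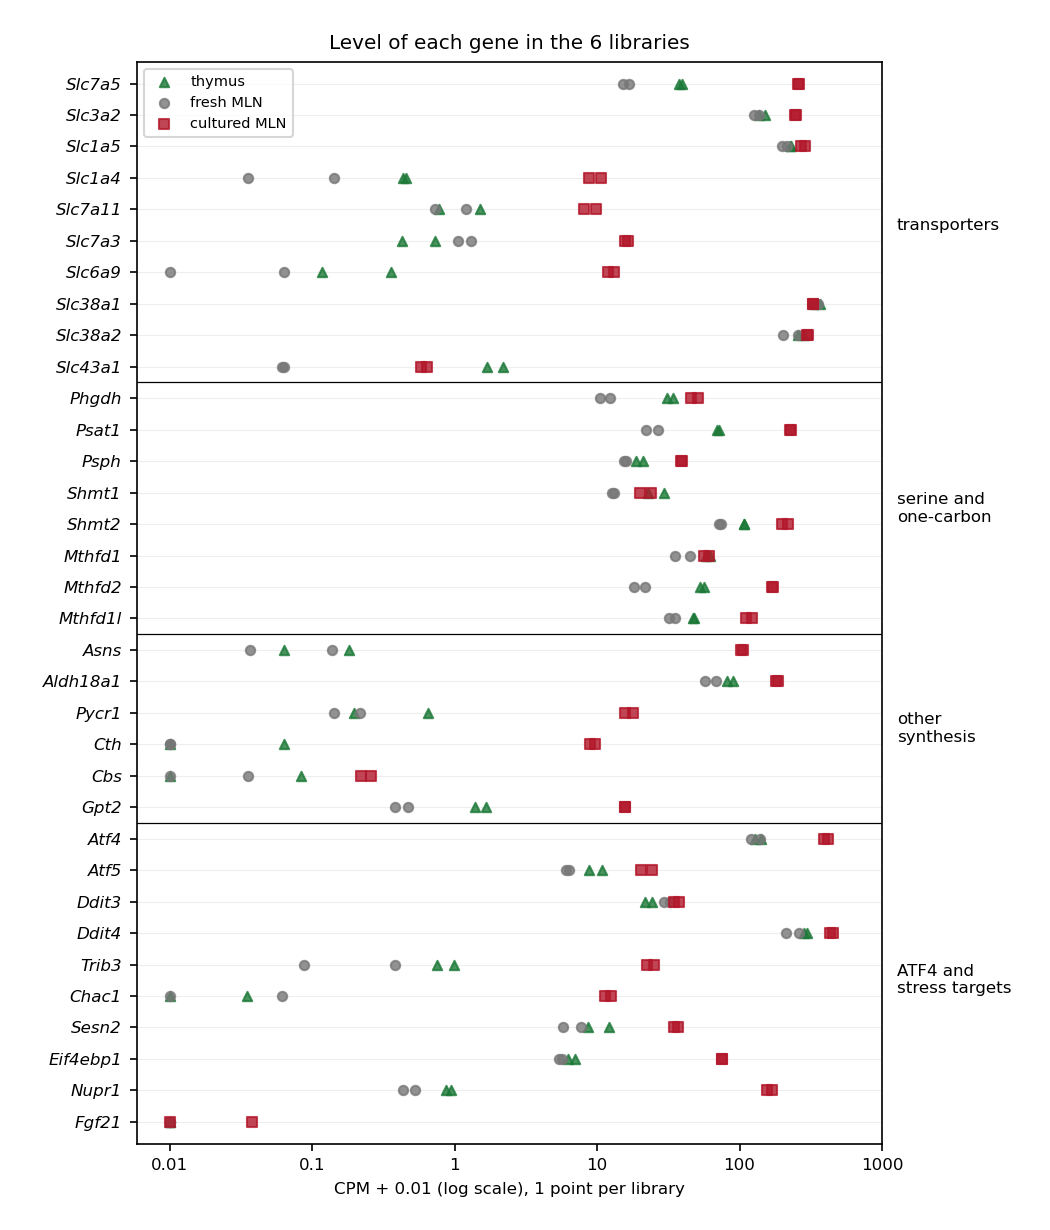
Level of each of the 34 genes as CPM plus 0.01 on a log axis, with 1 point per library (triangles thymus, circles fresh MLN, squares cultured MLN, 2 libraries each) and genes grouped by role. The cultured squares lie to the right of the fresh circles for every tested gene but Slc38a1, and Asns, Cth and Chac1 lie near the left edge in thymus and fresh MLN.

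The transporters differed widely among themselves. In culture 9 of 10 rose, with a median log2 fold change of 3.34, or 3.22 without Slc6a9, and their summed level went from 898 and 955 CPM in fresh MLN to 1472 and 1445 CPM. In thymus 4 rose, Slc7a3 fell and 5 were not called, with a median of 0.23 and summed levels of 1035 and 1033 CPM. A called share of 5 in 10 is near the 47.3% of all genes tested, and is no result about the transporters. The largest log2 rises in culture, in Slc6a9 and Slc1a4, started from fresh levels of at most 0.133 CPM. The 4 carriers with the highest fresh CPM, Slc38a1, Slc38a2, Slc1a5 and Slc3a2, differed by at most 1.87-fold.

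Slc7a5, which encodes the light chain of the large neutral amino acid exchanger that brings in leucine, stood at 16.8 and 15.2 CPM in fresh MLN. It stood at 39.3 and 37.3 CPM in thymus and at 259.8 and 257.4 CPM in cultured cells. The 3 groups did not overlap, and the replicates lay close to each other in each. The rise in culture was 16.1-fold (log2 4.01 ± 0.08 SE, adjusted p = 8.02e-14) and that in thymus 2.39-fold (log2 1.26 ± 0.08, adjusted p = 2.46e-08).

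Slc3a2, its heavy chain, moved far less. It stood at 126 and 137 CPM in fresh MLN, 137 and 149.8 CPM in thymus, and 247 and 245 CPM in cultured cells. The rise in culture was 1.87-fold (log2 0.90 ± 0.07, adjusted p = 6.94e-08), and thymus was not called (log2 0.13, adjusted p = 0.17). Per kilobase of exon, a scale on which different genes can be set side by side, Slc7a5 was at 0.127 and 0.106 of the level of Slc3a2 in the fresh libraries. The ratio was 0.273 and 0.237 in thymus, and 0.999 and 1.00 in culture. The light chain thus went from the much rarer transcript of the pair to one equal to its partner, or at 0.84 and 0.842 of it when each gene is given the length of its longest transcript.

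Slc1a5 and Slc1a4 encode a pair of related exchangers of small neutral amino acids, serine among them. Slc1a5 was abundant throughout, at 198 and 215 CPM in fresh MLN, 230 and 226 CPM in thymus, and 287 and 269.8 CPM in cultured cells. It rose 1.35-fold in culture (log2 0.43 ± 0.07, adjusted p = 7.25e-05). Slc1a4 was scarce in fresh MLN, at 0.0257 and 0.133 CPM, stood at 0.444 and 0.426 CPM in thymus, and reached 10.6 and 8.82 CPM in culture. Its groups did not overlap, with log2 fold changes of 6.89 ± 0.35 in culture (adjusted p = 8.4e-10) and 2.42 ± 0.57 in thymus (adjusted p = 0.00352). Per kilobase it still stood far below Slc1a5 in cultured cells, at 2.70 and 2.25 CPM against 68.7 and 64.7 CPM.

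Slc6a9, a glycine transporter, had no count in 1 fresh MLN library and 2 counts in the other, 14 and 4 counts in the thymus libraries, and 397 and 479 counts in the cultured libraries. Scaled for depth, the ratio of cultured to fresh counts was 483, with a 95% counting interval of 133 to 4000 that covers counting error only. The thymus rise (log2 2.98 ± 0.93, adjusted p = 0.0184) rests on those few counts, and was not called without fresh MLN replicate 1 (adjusted p = 0.0993) or thymus replicate 1 (adjusted p = 0.206). Of its 5141 exon bases, 1429 overlap Ccdc24 on the opposite strand, and the strand setting of the counting is not given in the sources used here.

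Slc7a11, the cystine carrier that also pairs with SLC3A2, stood at 0.720 and 1.20 CPM in fresh MLN and 0.764 and 1.49 CPM in thymus, which overlapped. In culture it was at 8.03 and 9.79 CPM, a rise of log2 3.22 ± 0.29 (adjusted p = 2.34e-07). Slc7a3, a carrier of arginine and lysine, was the one transporter to run the opposite way in thymus. It stood at 1.05 and 1.30 CPM in fresh MLN, 0.419 and 0.718 CPM in thymus, and 16.6 and 15.8 CPM in culture. It fell by 1.06 ± 0.29 on the log2 scale in thymus (adjusted p = 0.00861) and rose by 3.78 ± 0.20 in culture (adjusted p = 9.71e-10). The fall in thymus was not called without fresh MLN replicate 2 (adjusted p = 0.0514) or thymus replicate 1 (adjusted p = 0.0866).

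Slc43a1, another carrier of large neutral amino acids, had its highest level in thymus. It was at 2.17 and 1.68 CPM there, against 0.0514 and 0.0531 CPM in fresh MLN and 0.573 and 0.634 CPM in culture. These rest on 151, 4 and 42 counts per group. Thymus exceeded fresh MLN by log2 5.12 ± 0.48 (adjusted p = 1.76e-06), and cultured cells were below thymus by log2 -1.67 ± 0.32 (adjusted p = 0.000389).

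Slc38a1 and Slc38a2 encode sodium-coupled carriers of glutamine and other neutral amino acids. Slc38a1 stood at 354.9 and 328 CPM in fresh MLN, 369.6 and 333 CPM in thymus, and 328 and 327 CPM in culture, with no comparison called (cultured against fresh log2 -0.06, adjusted p = 0.456). Without thymus replicate 2 it was called lower in culture than in thymus (adjusted p = 0.047). Slc38a2 stood at 201 and 257 CPM in fresh MLN, 255 and 283 CPM in thymus, and 303 and 298 CPM in culture. It rose by log2 0.39 ± 0.10 in culture (adjusted p = 0.00288, and 0.132 on library totals), and its thymus difference of log2 0.23 was not called (adjusted p = 0.072), although it was with the replicate number as a block (adjusted p = 0.022), with no filter (0.00397), on library totals (0.0409), without fresh MLN replicate 2 (0.00221) and without thymus replicate 1 (0.0383). Per kilobase of exon, the levels in fresh MLN were 49.4 CPM for Slc1a5, 37.2 for Slc3a2, 25.9 for Slc38a2, 19.8 for Slc38a1 and 4.32 for Slc7a5. Per kilobase of the longest transcript they were 73.5, 46.7, 37.5, 47.0 and 4.56 CPM, so the order of the middle 3 depends on the length used, and Slc7a5 was the lowest of the 5 by both. In culture the levels per kilobase of exon were 69.7 CPM for Slc7a5, 69.7 for Slc3a2 and 66.7 for Slc1a5, and per kilobase of the longest transcript 73.5, 87.4 and 99.1 CPM.

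**Figure D2:**
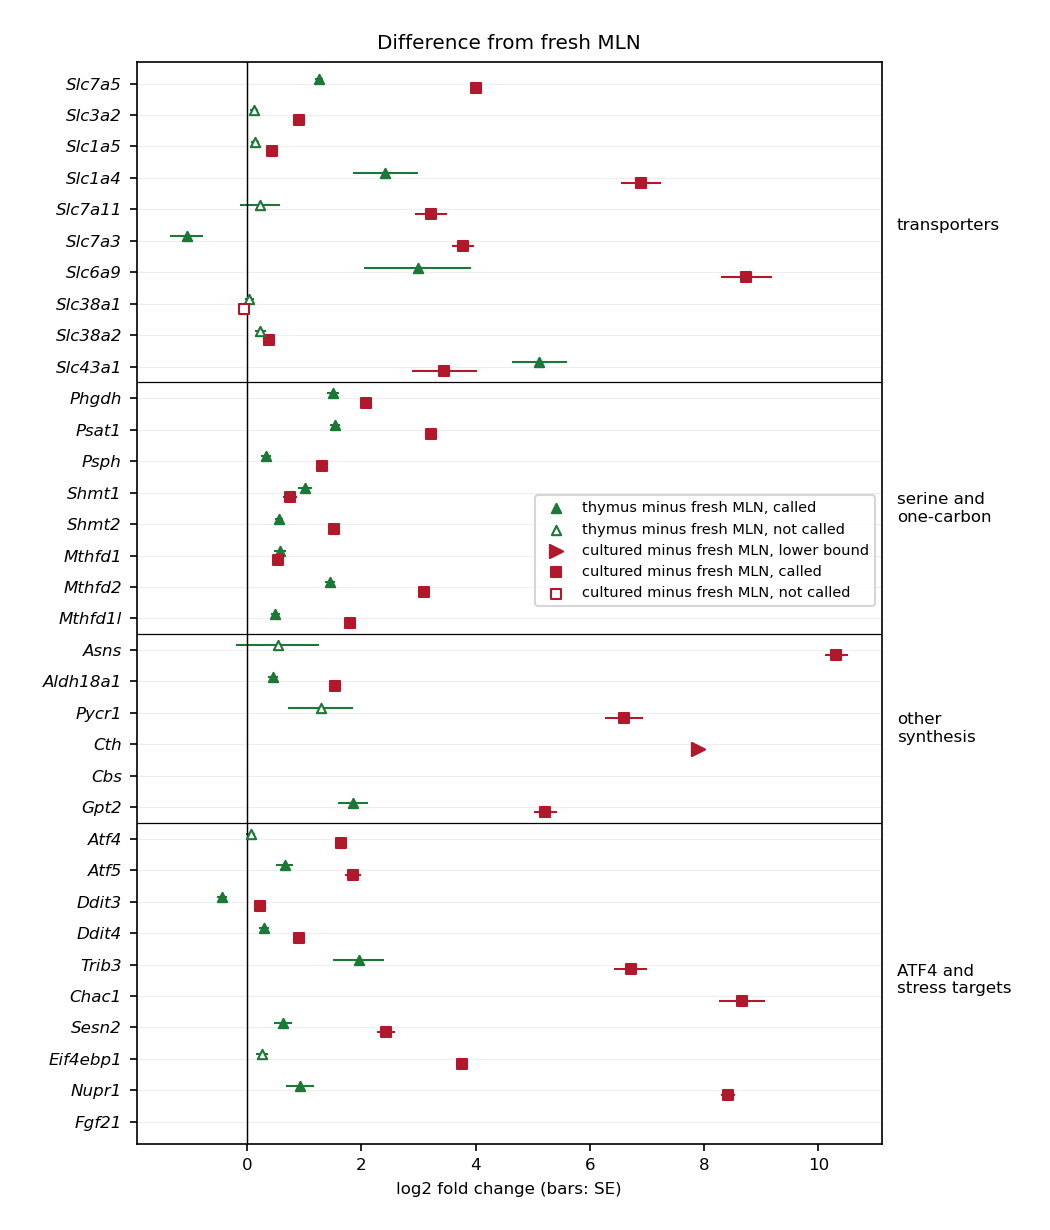
Log2 fold change from fresh MLN for each gene, triangles for thymus and squares for cultured MLN, filled where called and open where not, with bars of 1 SE. Cth has no count in fresh MLN and is drawn as its lower bound in culture, folds between groups of at most 3 counts are left out, and Cbs and Fgf21 were not tested. Where a gene has both, the square lies right of the triangle for all but Slc38a1, Slc43a1, Shmt1 and Mthfd1.

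All 8 serine and one-carbon enzymes rose both in culture and in thymus. Their median log2 fold change was 1.66 in culture and 0.79 in thymus, beside -0.01 and 0.00 over all genes. Their summed level was 244 and 218 CPM in fresh MLN, 427 and 409 CPM in thymus, and 870 and 914 CPM in culture. Against thymus, 6 of them were higher in cultured cells, and Shmt1 and Mthfd1 were not called. Shares called higher over all genes were 39.4% in culture and 25.3% in thymus against fresh MLN, and 34.8% in culture against thymus.

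Phgdh, the first enzyme of serine synthesis, stood at 12.3 and 10.5 CPM in fresh MLN, 33.9 and 30.8 CPM in thymus, and 45.8 and 50.8 CPM in culture. It rose 4.23-fold in culture (log2 2.08 ± 0.10, adjusted p = 4.42e-10) and 2.83-fold in thymus (log2 1.50 ± 0.10, adjusted p = 7.15e-08). The groups did not overlap, and the thymus libraries lay nearer to culture than to fresh MLN. Psat1, the aminotransferase of the next step, stood at 26.7 and 22.1 CPM in fresh MLN, 72.3 and 69.1 CPM in thymus, and 228 and 225 CPM in culture. Its rise was 9.29-fold in culture (adjusted p = 1.5e-12) and 2.90-fold in thymus (adjusted p = 1.1e-08). Psph, the phosphatase of the last step, stood at 16.0 and 15.6 CPM in fresh MLN, 18.9 and 20.9 CPM in thymus, and 38.9 and 39.3 CPM in culture. It moved least of the 3, by log2 1.31 ± 0.09 in culture and 0.33 ± 0.09 in thymus (adjusted p = 0.00723), and the thymus rise was not called without thymus replicate 2 (adjusted p = 0.0575). Of its 4329 exon bases, 452 overlap Cct6a on the other strand.

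The cytosolic and mitochondrial arms of the folate cycle moved unequally. Shmt1, the cytosolic serine hydroxymethyltransferase, stood at 12.8 and 13.1 CPM in fresh MLN, 29.4 and 22.8 CPM in thymus, and 19.97 and 23.7 CPM in culture. It rose by log2 0.75 ± 0.13 in culture and by 1.01 ± 0.13 in thymus, and thymus and culture overlapped (log2 -0.26, adjusted p = 0.0757). Culture was called lower than thymus without cultured replicate 2 (adjusted p = 0.0397) or thymus replicate 2 (adjusted p = 0.00539). Shmt2, its mitochondrial counterpart, stood at 73.9 and 71.7 CPM in fresh MLN, 107 and 107 CPM in thymus, and 197.5 and 219.5 CPM in culture, with rises of log2 1.52 ± 0.07 and, in thymus, 0.56 ± 0.07. Per kilobase, Shmt2 was at 7.20 and 6.83 times the level of Shmt1 in fresh MLN, 4.55 and 5.88 times in thymus, and 12.4 and 11.5 times in culture. The ratio was therefore lowest in thymus and highest in culture, without overlap between the groups.

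Mthfd1, the cytosolic folate enzyme, stood at 45.2 and 35.2 CPM in fresh MLN, 62.0 and 58.1 CPM in thymus, and 55.9 and 61.5 CPM in culture. Thymus and culture overlapped (log2 -0.03, adjusted p = 0.787). Mthfd2, which runs the mitochondrial steps, stood at 21.8 and 18.1 CPM in fresh MLN, 56.7 and 52.4 CPM in thymus, and 173 and 170.3 CPM in culture. Its rises were 8.58-fold in culture (log2 3.10 ± 0.09, adjusted p = 2.57e-12) and 2.73-fold in thymus (log2 1.45 ± 0.09, adjusted p = 2.73e-08). Per kilobase, Mthfd2 was below Mthfd1 in fresh MLN, at 0.615 and 0.657 of its level, slightly above it in thymus at 1.17 and 1.15, and at 3.94 and 3.53 times it in culture. Mthfd1l, which finishes the mitochondrial arm by releasing formate, stood at 35.5 and 32.0 CPM in fresh MLN, 47.1 and 48.0 CPM in thymus, and 111 and 123 CPM in culture, with rises of log2 1.80 ± 0.08 and 0.50 ± 0.08.

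**Figure D3:**
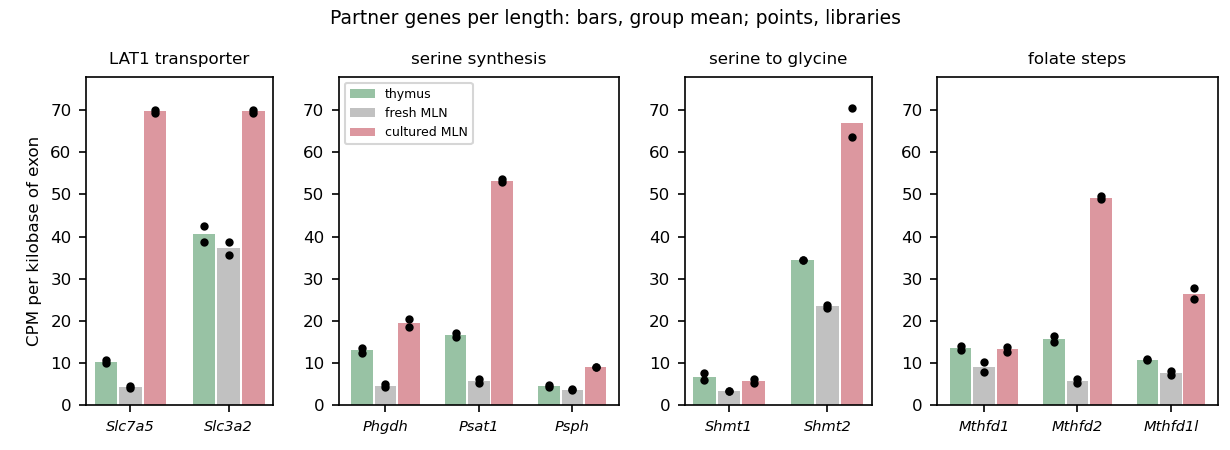
Level per kilobase of exon of partner genes in the 6 libraries, on a linear axis, with bars for group means and 1 point per library. Slc7a5 goes from a mean of 4.32 CPM per kilobase in fresh MLN to 69.75 in culture, and Slc3a2 from 37.2 to 69.7. Mthfd2 stands below Mthfd1 in fresh MLN and above it in thymus and culture.

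Of the 6 enzymes that make other amino acids, Aldh18a1 and Gpt2 rose both in culture and in thymus. Asns, Pycr1 and Cth were high in culture and could be tested only because of it, so their values are given as a description, and Cbs was not tested. Their summed level was 69.7 and 57.4 CPM in fresh MLN, 91.9 and 83.7 CPM in thymus, and 327 and 331 CPM in culture.

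Asns, which makes asparagine from aspartate, was close to absent outside culture. It had 5 and 1 counts in the fresh MLN libraries, 7 and 2 in the thymus libraries, and 3417 and 3817 in the cultured libraries. In CPM these were 0.129 and 0.0266, 0.173 and 0.0532, and 103 and 105.2. The log2 difference of culture was 10.32 ± 0.20 from fresh MLN and 9.78 ± 0.19 from thymus, while thymus and fresh MLN overlapped (adjusted p = 0.582). In cultured cells it reached 38.1 CPM per kilobase, above the 19.4 of Phgdh and below the 53.3 of Psat1.

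Cth, which releases cysteine from cystathionine, had no count in fresh MLN, 2 counts in 1 thymus library, and 295 and 349 counts in the cultured libraries. Set against 3 counts over the fresh group, cultured cells were at least 237-fold higher, and the ratio to thymus was 363 (95% counting interval 100 to 3000). Cbs, which makes cystathionine in the step before, had 1 count in fresh MLN, 3 in thymus and 16 in culture, a cultured to fresh ratio of 17.6 with an interval of 2.74 to 740. Per kilobase, the enzymes of these consecutive steps stood at 3.32 CPM for Cth and 0.0307 CPM for Cbs in culture.

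Aldh18a1, which starts proline synthesis from glutamate, was abundant throughout, at 68.8 and 56.8 CPM in fresh MLN, 89.3 and 82.0 CPM in thymus, and 182 and 185 CPM in culture. It rose by log2 1.54 ± 0.09 in culture and 0.45 ± 0.09 in thymus. Pycr1, which finishes the same route in mitochondria, stood at 0.206 and 0.133 CPM in fresh MLN, 0.641 and 0.186 CPM in thymus, and 17.8 and 15.7 CPM in culture (log2 6.60 ± 0.34). The thymus libraries overlapped the fresh ones, and the thymus difference was not called (adjusted p = 0.0794), although it was without thymus replicate 2 (adjusted p = 0.00435). Gpt2, the mitochondrial alanine aminotransferase, stood at 0.463 and 0.372 CPM in fresh MLN, 1.65 and 1.38 CPM in thymus, and 15.7 and 15.7 CPM in culture. It rose 37.3-fold in culture (adjusted p = 5.8e-11) and 3.62-fold in thymus (adjusted p = 7.43e-05).

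In the group of ATF4, related factors and stress targets, all 9 genes tested rose in culture, with a median log2 fold change of 2.43, or 2.14 over the 8 without Chac1. In thymus 5 rose, Ddit3 fell and 3 were not called, with a median of 0.29. Against thymus all 9 were higher in culture, with a median of 1.80, or 1.69 without Chac1. Over all genes tested, 77.6% were called in cultured against fresh MLN, 47.3% in thymus against fresh MLN and 72.7% in cultured against thymus. Their summed level was 428.5 and 404 CPM in fresh MLN, 475 and 478 CPM in thymus, and 1252 and 1182 CPM in culture.

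Atf4 itself stood at 119.9 and 138 CPM in fresh MLN, 129 and 140.5 CPM in thymus, and 417 and 393 CPM in culture. Thymus and fresh MLN overlapped (log2 0.06, adjusted p = 0.57), and the cultured libraries stood 3.14-fold above fresh MLN (log2 1.65 ± 0.08, adjusted p = 6.17e-10). ATF4 is governed largely at translation, which these counts of RNA do not measure. Atf5, a related factor also governed by eIF2 alpha, stood at 6.30 and 6.03 CPM in fresh MLN, 8.70 and 10.7 CPM in thymus, and 24.4 and 20.2 CPM in culture. Its groups did not overlap, with rises of log2 1.85 ± 0.14 in culture and 0.66 ± 0.14 in thymus (adjusted p = 0.00209).

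Ddit3, which encodes the stress factor CHOP, moved least of the group in culture. It stood at 29.5 and 32.7 CPM in fresh MLN, 21.6 and 24.4 CPM in thymus, and 37.9 and 34.9 CPM in culture. The rise in culture was log2 0.23 ± 0.09 (adjusted p = 0.0351), and it was not called without cultured replicate 1 (adjusted p = 0.197), without fresh MLN replicate 1 (adjusted p = 0.224), or on library totals alone (adjusted p = 0.972). In thymus it fell by 0.44 ± 0.09 on the log2 scale (adjusted p = 0.00179), with no overlap. The change in culture was thus 3.14-fold for Atf4 and 1.17-fold for Ddit3. On the other strand, Nup62 shares 82 of the 1993 exon bases of Atf5 and Mars shares 68 of the 1713 of Ddit3.

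Nupr1, which encodes a small chromatin-bound stress protein, went from a low level to one of the higher ones of its group. It stood at 0.514 and 0.425 CPM in fresh MLN, 0.863 and 0.931 CPM in thymus, and 169.0 and 155 CPM in culture. The rise was 343-fold in culture (log2 8.42 ± 0.13, adjusted p = 1.15e-14) and 1.90-fold in thymus (log2 0.93 ± 0.24, adjusted p = 0.00734, and 0.061 without fresh MLN replicate 2). Trib3, a pseudokinase that binds ATF4 and CHOP, stood at 0.0771 and 0.372 CPM in fresh MLN, 0.986 and 0.745 CPM in thymus, and 24.9 and 22.4 CPM in culture. Its log2 rises were 6.72 ± 0.29 and 1.95 ± 0.44, the latter at adjusted p = 0.00281. Chac1, which breaks down glutathione, had 2 counts in fresh MLN, 1 in thymus, and 413 and 414 counts in the cultured libraries. The ratio of culture to fresh MLN was 456, with a 95% counting interval of 126 to 3770.

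Sesn2, Ddit4 and Eif4ebp1 encode proteins that restrain mTORC1 or the translation that it drives. Sesn2 stood at 5.76 and 7.65 CPM in fresh MLN, 8.60 and 12.2 CPM in thymus, and 37.1 and 34.9 CPM in culture (log2 2.43 ± 0.16, adjusted p = 9.38e-09). Ddit4 stood at 261 and 213 CPM in fresh MLN, 299 and 282 CPM in thymus, and 454 and 434 CPM in culture (log2 0.91 ± 0.09, adjusted p = 7.18e-07). Eif4ebp1 stood at 5.40 and 5.66 CPM in fresh MLN, 6.29 and 6.97 CPM in thymus, and 74.9 and 74.8 CPM in culture (log2 3.76 ± 0.09, adjusted p = 6.15e-13). Sesn2 and Ddit4 also rose in thymus, by log2 0.63 ± 0.17 and 0.29 ± 0.09, and Eif4ebp1 was not called there (adjusted p = 0.0563, and 0.0432 without thymus replicate 1). The thymus rise of Sesn2 was not called without fresh MLN replicate 1 (adjusted p = 0.0636) or thymus replicate 2 (adjusted p = 0.0861), and that of Ddit4 without fresh MLN replicate 2 (adjusted p = 0.199) or thymus replicate 1 (adjusted p = 0.0602). Fgf21, a hormone known as an ATF4 target in liver, had no count in thymus or fresh MLN and 1 count in culture.

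Promoter sequence gives a further description of these genes. The genes were chosen by name with earlier results of these data known, some of them as targets in the ATF4 response. Their share with an ATF4 motif is therefore not independent of that choice. ATF4 with a C/EBP partner is known to bind a composite element, searched here as TGATGNAA on both strands (TTNCATCA on the other) in the 250 bases before each RefSeq start site, build GRCm38.p6. Of the 34 genes, 28 had a promoter entry, and Slc7a5, Slc1a5, Slc7a3, Slc38a1, Cth and Eif4ebp1 had none. The motif was present for 6 of the 28, or 21.4%, and for 3.91% of the 27025 genes with an entry. A longer form with 1 more letter, TGATGNAAT, which lies within the first, was present for 3 of the 28 (10.7%) and for 0.91% of all genes. A different motif, CACGTG, was present for Slc43a1, Aldh18a1, Cbs, Nupr1 and Fgf21, or 17.9% of the 28, and for 6.86% of all genes, and it does not overlap the printed matches. The stretches that hold the first motif are printed to show it in its place, read 5′ to 3′ on the strand of the gene, with the match in capitals.
Slc7a11, chr3:50443614-50443725, minus strand: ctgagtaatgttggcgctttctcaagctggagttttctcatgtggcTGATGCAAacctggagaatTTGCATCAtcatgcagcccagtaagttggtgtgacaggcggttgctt
Asns, chr6:7693210-7693278, minus strand: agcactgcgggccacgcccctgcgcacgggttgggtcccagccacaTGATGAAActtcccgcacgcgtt
Pycr1, chr11:120643798-120643897, minus strand: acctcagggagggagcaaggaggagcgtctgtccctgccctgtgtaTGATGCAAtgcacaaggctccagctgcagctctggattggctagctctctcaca
Chac1, chr2:119351003-119351102, plus strand: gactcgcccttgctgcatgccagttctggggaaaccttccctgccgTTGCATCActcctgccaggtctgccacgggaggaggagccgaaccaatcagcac
Nupr1, chr7:126625527-126625626, minus strand: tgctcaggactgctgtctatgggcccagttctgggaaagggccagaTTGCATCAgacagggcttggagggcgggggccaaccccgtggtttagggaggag
Fgf21, chr7:45615576-45615675, minus strand: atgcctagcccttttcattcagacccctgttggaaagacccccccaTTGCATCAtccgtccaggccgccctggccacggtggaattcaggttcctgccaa

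The Asns match lay 23 to 16 bases before the start, and Slc7a11 had a match on each strand, at 66 to 59 and at 47 to 40 bases. The others lay at 103 to 96 bases for Pycr1, 110 to 103 for Nupr1, 139 to 132 for Fgf21 and 193 to 186 for Chac1. The motif was absent from the window of 22 of the 28, Slc1a4, Slc6a9, Slc43a1, Gpt2 and Trib3 among them, whose log2 differences in culture were 6.89, 8.74, 3.45, 5.22 and 6.72. A match describes letters and not binding.

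**Figure D4:**
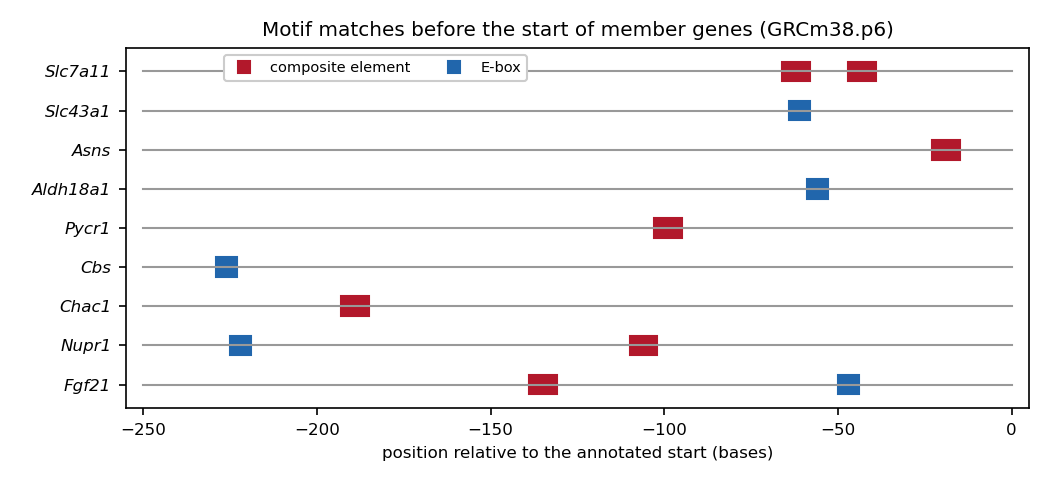
Position of the TGATGNAA and CACGTG matches, as bases before the RefSeq start site (x axis, 0 is the start), for the genes that hold either. The TGATGNAA matches lie between 193 and 16 bases before the start.

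Other genes of the same pathways were counted by list, leaving out the 34 above. For comparison, 77.6% of all genes tested were called in culture, 39.4% higher and 38.1% lower. In thymus 47.3% were called, 25.3% higher and 22% lower. Of the 20 cytosolic aminoacyl-tRNA synthetases, which load amino acids onto tRNA, 17 rose and 2 fell in culture, with a median log2 fold change of 1.00. In thymus 11 rose and 1 fell, with a median of 0.18. Gars, for glycine, stood at 62.6 and 55.6 CPM in fresh MLN, 87.4 and 88.2 CPM in thymus, and 228 and 229 CPM in culture. Sars, for serine, stood at 108 and 104 CPM in fresh MLN and at 339.6 and 336 CPM in culture. Vars, for valine, was called lower in thymus, by log2 -0.68 ± 0.08 (adjusted p = 1.44e-05).

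Of 12 other partners and targets of ATF4, 10 were tested and all 10 rose in culture, with a median of 1.65. In thymus 4 of the 10 rose, with a median of 0.15. That called share was near the 47.3% of all genes, and is no result about these genes. Cars is counted both here and among the synthetases. Stc2, a secreted glycoprotein, stood at 0.0514 and 0.213 CPM in fresh MLN, 2.81 and 2.66 CPM in thymus, and 31.7 and 32.0 CPM in culture. Vldlr, a lipoprotein receptor, had no count in fresh MLN and was at least 332-fold higher in culture. Ero1l, which oxidizes proteins in the endoplasmic reticulum, was at 144 and 128 CPM in fresh MLN and at 7299 and 6351 CPM in culture, most of the summed level of its list. Cebpg, a C/EBP partner of ATF4, rose by log2 0.29 ± 0.07 in thymus (adjusted p = 0.00562). Among 14 genes for the eIF2 alpha kinases, phosphatase and eIF2B, 9 rose and 3 fell in culture (median 0.42), and 3 rose and 3 fell in thymus (median 0.02). The called share of this list in thymus was near the 47.3% of all genes, and is no result about these genes. Ppp1r15a, which brings the phosphatase to eIF2 alpha and so ends the response, rose by log2 1.30 ± 0.10 in culture. Eif2ak2, the kinase that senses double-stranded RNA, fell by 1.50 ± 0.06 there and by 0.78 ± 0.06 in thymus, both on the log2 scale. Eif2s1, eIF2 alpha itself, rose by log2 0.48 ± 0.07 in thymus.

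Of 20 further enzymes for folate, methionine and glycine cleavage, 13 rose and 5 fell in culture (median 0.40), and 7 rose and 2 fell in thymus (median -0.01). Their called share in thymus was near the 47.3% of all genes, and is no result about these enzymes. Aldh1l2, a mitochondrial folate enzyme, was at 0.411 and 0.505 CPM in fresh MLN, 0.246 and 0.213 CPM in thymus, and 7.79 and 7.03 CPM in culture. Tyms, which makes thymidylate, stood at 13.3 and 10.1 CPM in fresh MLN, 47.8 and 49.7 CPM in thymus, and 45.4 and 49.2 CPM in culture. It rose by log2 2.06 ± 0.11 in thymus (adjusted p = 8.4e-09), and the thymus and cultured libraries overlapped. Of 16 enzymes for glutamine, aspartate, proline and branched-chain amino acids, 11 rose and 5 fell in culture (median 0.85), and 9 rose and 3 fell in thymus (median 0.30). Bcat1, the cytosolic branched-chain aminotransferase, had 3 counts in fresh MLN and 4024 in culture, a ratio of 1480 with a 95% counting interval of 506 to 7180. Got1, the cytosolic aspartate aminotransferase, stood at 12.7 and 11.5 CPM in fresh MLN and at 171 and 167 CPM in culture. In thymus Ass1, of arginine synthesis, rose by log2 1.82 ± 0.10 and Prodh, which breaks down proline, fell by 1.17 ± 0.16 on the log2 scale.

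The transporters outside the 34 did not move as a body. Of 24, 17 could be tested, of which 9 rose and 6 fell in culture (median 0.58) and 9 rose and 4 fell in thymus (median 0.21). Beside these stand the 77.6% and 47.3% called over all genes. Slc36a4 stood at 12.7 and 9.48 CPM in fresh MLN and at 56.5 and 55.4 CPM in culture. Slc43a2, a relative of Slc43a1, was at 311 and 331.5 CPM in fresh MLN and at 97.3 and 95.9 CPM in culture, and fell by 1.74 ± 0.07 on the log2 scale. Slc43a3, the third of that family, was at 9.05 and 9.14 CPM in fresh MLN and at 42.4 and 40.7 CPM in thymus. Slc25a15, the mitochondrial ornithine carrier, rose by log2 0.73 ± 0.12 in thymus.

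Of 26 genes of mTORC1 and amino acid sensing, 9 rose and 12 fell in culture (median -0.15), and 5 rose and 7 fell in thymus (median 0.06), shares near the 77.6% and 47.3% called over all genes. Castor1, which encodes an arginine sensor that inhibits mTORC1, stood at 20.1 and 19.5 CPM in fresh MLN, 26.5 and 27.2 CPM in thymus, and 320.2 and 349 CPM in culture. Castor2, its relative, rose by log2 1.76 ± 0.08 in culture. Nprl3 and Sesn3 fell in thymus, by 0.65 ± 0.08 and 0.52 ± 0.11 on the log2 scale. Myc, a growth factor-induced transcription factor known to raise amino acid transporters, stood at 103 and 82.5 CPM in fresh MLN, 81.7 and 84.7 CPM in thymus, and 179 and 183 CPM in culture.

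**Figure D5:**
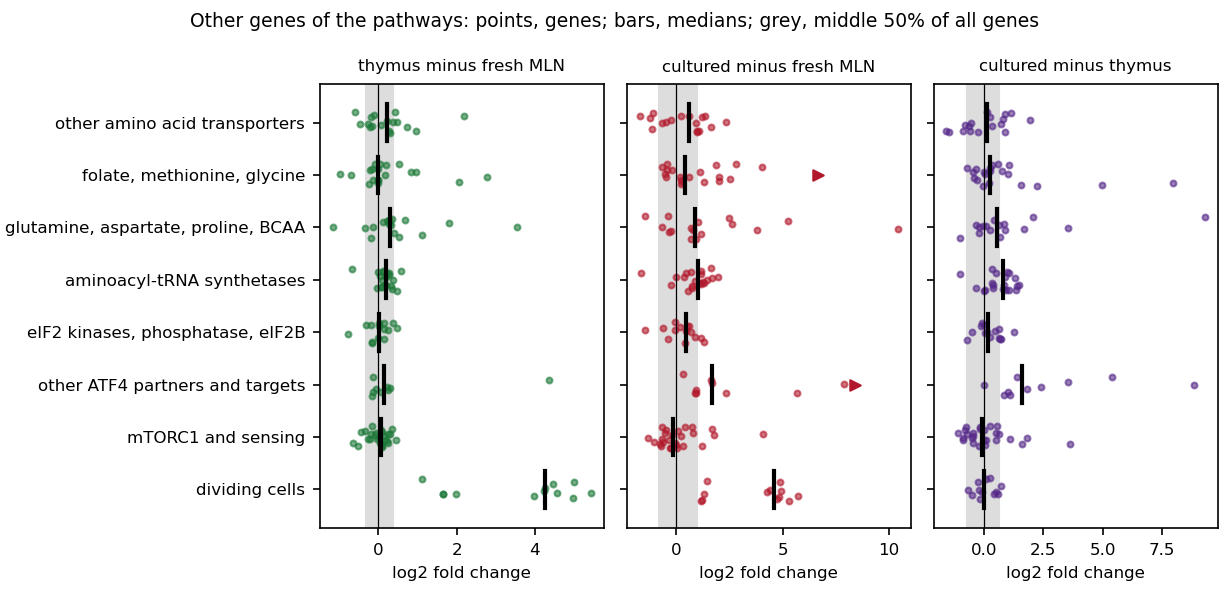
Log2 fold change of each tested gene (points) in 8 lists outside the 34 genes, with the median of the list as a bar and the middle 50% of all genes tested as a grey band, in the 3 comparisons. Arrowheads are lower bounds for genes with no count in fresh MLN. The dividing-cell genes stand at a median of 4.25 in thymus and 4.57 in culture and near 0 between them, while the other ATF4 targets have medians of 0.15 and 1.65.

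Genes of dividing cells moved with both comparisons to fresh MLN. All 12 rose in thymus and all 12 in culture, with medians of 4.25 and 4.57, and their summed level was 244 and 218 CPM in fresh MLN, 2171 and 2009 CPM in thymus, and 1861 and 2021 CPM in culture. Between cultured cells and thymus 5 were higher and 3 lower, with a median of 0.01. In that comparison, where 34.8% of all genes tested were called higher, and without the 5 genes tested only because of culture, 8 of 8 ATF4 and stress genes, 6 of 9 transporters and 6 of 8 serine and one-carbon enzymes were higher in culture. Their medians were 1.69, 0.78 and 0.97, and the differences between these groups of genes were not tested. The part of cell division in the differences from fresh MLN was not tested.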

How the data were processed

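RNA was sequenced from 6 ILC2 libraries, 2 per group, with a stranded mRNA kit per the labels' protocols. The deposited values are raw counts per Ensembl gene, made by the authors with HTSeq 0.5.3p9 on mm9 (NCBIM37) per the submitters' processing notes; which aligner, annotation release and strand setting were used is not given in the sources used here. Symbols, exon lengths and overlaps came from GENCODE M21 (GRCm38): 32919 of 37991 identifiers had a symbol. Genes below edgeR's default filter were left out. The counts of 16231 genes were fitted with edgeR 4.0.16 (R 4.3.3) with 1 mean per group and no block, TMM factors, 3 residual degrees of freedom and two-sided quasi-likelihood tests, adjusted over all genes tested. SE is the log2 fold change over the root of F. The script was tested on simulated data. Members and lists were chosen with earlier results of these data known; all members are named, and from each other list the 2 called genes of largest change with at least 5 CPM in the higher group, per comparison with fresh MLN, of which 1 is not reported here. Alternatives were other normalizations, filters, DESeq2 1.42.0, a test against 2-fold, the replicate block, the compared libraries alone, and each library left out. Promoters came from RefSeq tables.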

Additional observations from a re-analysis of the deposited data

How the results depend on the processing

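Over all alternatives, single-gene values kept direction and side of the threshold 466 times in cultured against fresh MLN, lost the call 12 times, gained it 1 time and reversed 0 times. The same counts were 430, 26, 10 and 8 for thymus against fresh MLN, and 455, 10, 8 and 6 for cultured against thymus. Library totals alone moved the median of all genes by -0.22 in cultured against fresh MLN and by -0.26 in cultured against thymus, where calls went from 5654 higher and 6139 lower to 4254 and 7880. There 1 of the genes, Slc38a1, was called lower in cultured than fresh MLN, and 4 were lower in cultured than thymus. The latter count was 2 with no filter, 0 at a minimum of 5 CPM, and 1 to 3 with each library left out. Against a 2-fold change, 6 genes were higher and 0 lower in thymus than fresh MLN. The lower count there was 1 to 2 with each library left out. With the replicate number as a block, 31, 20 and 27 genes were higher in cultured against fresh MLN, thymus against fresh MLN and cultured against thymus, and the labels give no pairing (correlations of deviations 0.24, 0.08 and 0.03). Left-out libraries ended the thymus calls of Slc7a3, Slc6a9, Psph, Ddit4, Sesn2 and Nupr1. Leaving out 1 library moved uncalled log2 differences of thymus from fresh MLN across 0, from -0.31 to 0.65 for Slc7a11, -0.034 to 0.119 for Slc38a1, -0.53 to 1.99 for Asns, -0.036 to 0.163 for Atf4 and -3.12 to 2.26 for Chac1. In cultured against thymus, Mthfd1 ran from -0.098 to 0.035 with each library left out, and stood at 0.025 with RLE factors or DESeq2 and at 0.005 with only the 4 libraries compared, and Slc38a2 stood at -0.099 on library totals. The cause was not tested. Counts without the 5 genes tested only because of culture were added after seeing the data.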
